A study of Mus musculus with 12 samples.

Results

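The cytosolic ribosome of mammalian cells is built from ribosomal RNA and a fixed set of ribosomal proteins, which are encoded by genes spread over many chromosomes. The genes described here were taken by name: protein-coding genes of the GENCODE M21 mouse annotation whose symbol begins with Rpl or Rps and a digit, together with Rpsa, Rplp0, Rplp1 and Rplp2. Of 102 genes that fitted the name pattern, 10 encode Rps6k kinases and 6 carry the pseudogene tag "-ps" in their symbol, and both kinds were left out. That left 86 members of 55401 genes in the tables. They comprise 31 core proteins of the small (40S) subunit, 43 core proteins of the large (60S) subunit, 3 proteins of the P stalk, and 9 paralogs or non-core relatives (Rpl3l, Rpl7l1, Rpl10l, Rpl22l1, Rpl36al, Rpl39l, Rps27l, Rps27rt and Rps19bp1). The name rule used no measured value.

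The libraries were bulk RNA-seq of OT-I CD8 T cells, which carry a transgenic T cell receptor for an ovalbumin peptide. All 12 libraries share that genotype, with 3 libraries in each of 4 groups. Day 14 and day 4 tumour libraries came from CD44+ OT-I cells sorted out of B78ChOVA melanomas in C57Bl6/J mice, 14 or 4 days after transfer of OT-I cells, and the labels call these cells exhausted. Effector libraries came from OT-I cells stimulated with antigen in vitro for 5 days. For naive libraries, cells were taken directly from lymph nodes of tumour-free OT-I mice. The labels give no age and do not say whether libraries of a group came from separate mice or cultures, so p-values measure the spread between these libraries only, which may be technical. Tumour residence, transfer into a host, and culture are combined with the cell state in these groups and cannot be told apart.

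Ribosomal proteins of the small subunit line the channel in which the messenger RNA is decoded, and those of the large subunit surround the site of peptide bond formation and the exit tunnel. Their messenger RNAs are long-lived, abundant and mostly begin with a run of pyrimidines, the 5′ terminal oligopyrimidine (TOP) motif, through which mTORC1 and Larp1 adjust their translation. Resting T cells hold few ribosomes and build many more after activation, much of it by control of translation, which counts of messenger RNA do not measure.

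Each library held between 11937053 and 17094006 counts in genes. Markers of CD8 T cells (Cd3e, Cd3d, Cd3g, Cd8a, Cd8b1, Lck, Cd2 and Trac) summed to 3933 to 4099 CPM (counts scaled to the size of each library) in day 14 libraries, 2954 to 3480 CPM in day 4 libraries, 5276 to 5671 CPM in effector libraries and 4293 to 4841 CPM in naive libraries. Of these 8 markers, 7 were called lower for day 4 versus effector and 5 for day 4 versus naive. The 8 melanoma markers summed to 426 to 1659 CPM in day 14 libraries, 687 to 1030.3 CPM in day 4 libraries, 36.8 to 42.4 CPM in effector libraries and 26.3 to 32.8 CPM in naive libraries, and all 8 were called higher in both tumour groups than in naive and effector libraries. The 10 macrophage and monocyte markers summed to 65.4 to 117 CPM in day 14 libraries, 64.0 to 126 CPM in day 4 libraries, 6.11 to 10.1 CPM in effector libraries and 13.9 to 24.3 CPM in naive libraries. These markers move with every comparison of a tumour group with naive or effector libraries below, and the part of tumour cell RNA in the fold changes of ribosomal protein genes, which all cells express, was not tested. For effector versus naive, 4 of 8 CD8 T cell markers were called higher and 0 lower. Of 9 tested macrophage and monocyte markers, 6 were lower and 0 higher there, against 10.4% and 14.6% of all tested genes. The part of other cells in that comparison was not tested either. For day 14 versus day 4, all 8 CD8 T cell markers had positive log2 fold changes (median 0.28). Of these 3 were called higher, against 7.17% of all tested genes, and 0 melanoma markers were called in either direction. Replicate 1 of day 14 held the highest melanoma sum (1659 CPM, against 694 and 426 CPM in replicates 2 and 3), and 80 of the 83 tested members were lowest in it among the day 14 libraries. In bulk samples, fewer cells of a type and less RNA per cell cannot be told apart.

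Promoter sequences are shown first for the members on which the results turn: the pairs Rps27 with Rps27l and Rpl22 with Rpl22l1, in which the core gene did not follow its paralog, and Rps10 and Rps26 as core genes that changed in opposite directions between tumour and naive libraries. Each line gives 40 bases before the annotated RefSeq start and 20 bases from it on (build GRCm38.p6, written 5′ to 3′ on the gene's strand), with the longest run of C and T within 10 bases of the start in capitals. Positions are chr3:90213629-90213688 on the minus strand for Rps27, chr9:66946046-66946105 on the plus strand for Rps27l, chr4:152325686-152325745 on the plus strand for Rpl22, chr3:28805468-28805527 on the plus strand for Rpl22l1, chr17:27635225-27635284 on the minus strand for Rps10, and chr10:128626487-128626546 on the minus strand for Rps26.
Rps27: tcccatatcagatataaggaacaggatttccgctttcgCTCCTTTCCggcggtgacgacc
Rps27l: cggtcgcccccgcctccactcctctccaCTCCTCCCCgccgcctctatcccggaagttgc
Rpl22: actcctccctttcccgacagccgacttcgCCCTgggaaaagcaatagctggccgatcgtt
Rpl22l1: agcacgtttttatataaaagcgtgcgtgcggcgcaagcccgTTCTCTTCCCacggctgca
Rps10: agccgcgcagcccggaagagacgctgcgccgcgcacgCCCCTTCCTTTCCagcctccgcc
Rps26: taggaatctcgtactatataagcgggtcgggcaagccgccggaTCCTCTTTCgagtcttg

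The run was 9 bases long in Rps27, Rps27l and Rps26, 10 bases in Rpl22l1, 13 bases in Rps10 and 4 bases in Rpl22. It spanned the annotated start in Rps27 and Rps10, began after it in Rpl22l1 and Rps26, and ended before it in Rps27l and Rpl22. A RefSeq promoter window of 250 bases before to 50 bases after the start was at hand for 66 members. For each member the window nearest the annotated gene start was taken. For each other gene, expressed or not, it was the window with the lowest coordinate, so the compared windows were not chosen alike. A run of at least 7 pyrimidines near the start stood in 28 of 57 core and P stalk members (49.1%), in 3 of 9 paralogs or non-core members, and in 20.1% of the windows of 26959 other genes. The letters CCGGAAG, the core of sites bound by ETS family factors such as Gabpa, stood on either strand in 40.4% of the core and P stalk windows and in 9.01% of the other windows. The letters GGGCGG, the GC box, stood in 59.7% of the core and P stalk windows and in 35.5% of the others, and AANATGGC, the motif of Yy1, in 17.5% and 6.18%. The TATA letters TATAAA stood in 8.77% of the core and P stalk windows and in 14.2% of the others. The reverse complement of CCGGAAG begins with pyrimidines that can form part of such a run, so the motif counts are not independent, and a match is a description of the window only. Over the 28 core and P stalk members with a long run and the 29 with a shorter one, the median log2 fold change was -0.19 and -0.31 for day 14 versus naive, and -0.26 and -0.25 for effector versus naive.

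Together the members took 3.68%, 4.40% and 4.21% of gene counts in day 14 libraries, 4.64%, 4.41% and 4.65% in day 4 libraries, 3.86%, 3.89% and 4.03% in effector libraries, and 4.74%, 5.22% and 5.26% in naive libraries. The naive libraries held the highest shares, and none of the other 9 libraries reached the lowest naive one. On the scaled CPM used for the tests this separation was absent. There the members summed to 44791 CPM in naive replicate 1, under the 46299 and 47326 CPM of day 4 replicates 1 and 3. Effector libraries were low and close to each other, and among day 14 libraries replicate 1 stood apart from the other two. Replicate 1 was the lowest naive library too, and 77 of 83 tested members were lowest in it among the naive libraries. Reads outside genes also differed between libraries: they made up 25.1%, 22.7% and 23.5% of reads in day 14 libraries, 20.7%, 24.5% and 22.1% in day 4 libraries, 22.2%, 21.6% and 22.1% in effector libraries, and 30.2%, 28.6% and 25.8% in naive libraries. Replicate 1 was the highest by this measure in day 14 and in naive libraries. Their part in the differences was not tested.

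**Figure D1:**
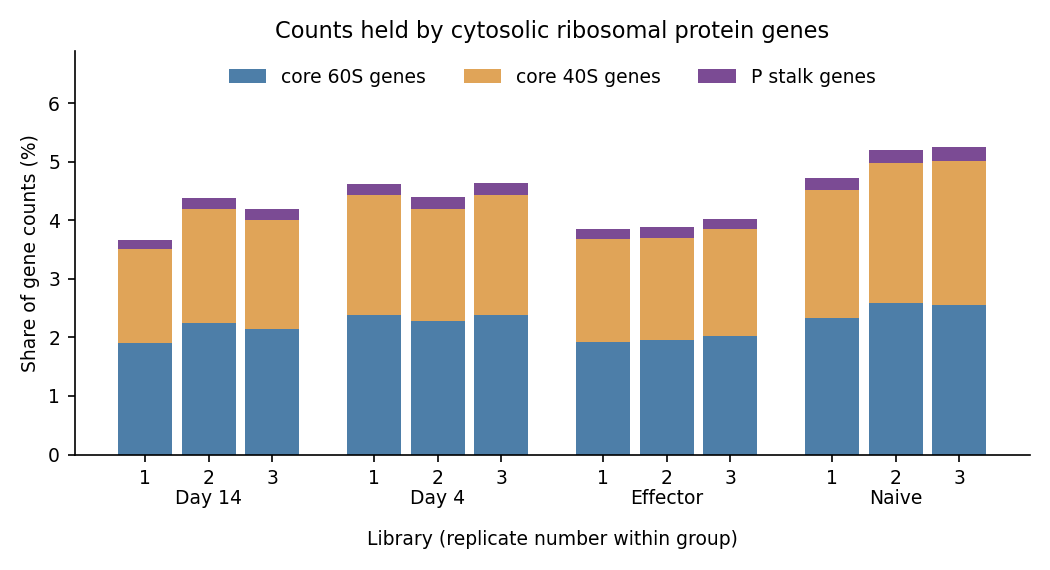
Share of gene counts (percent, y axis) held by core 60S, core 40S and P stalk genes in each of the 12 libraries (x axis, replicate number within group). Naive libraries stand highest, between 4.74% and 5.26% for all members, and effector libraries lie between 3.86% and 4.03%.

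Levels differed widely between members. Of 77 core and P stalk genes, 72 averaged at least 100 CPM over the 12 libraries. Per kilobase of the principal transcript, the highest mean levels were those of Rps4x (1909.5 CPM per kb), which is the X-linked copy of this small subunit protein, and Rps18 (1529 CPM per kb). The most abundant large subunit gene by total level was Rpl3 (1828 CPM), whose protein reaches into the peptidyl transferase centre.

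The 5 core genes under 100 CPM were Rpl13a, Rpl23a, Rpl24, Rpl35 and Rps10, named here after their values were seen. They averaged 26.7, 16.2, 3.23, 59.7 and 7.09 CPM per kb in that order, far under their partners in the same subunit. In each of them other annotated genes overlap at least 25% of the exon bases, and reads that overlap several genes are tallied apart as ambiguous. The same overlap was found in 2 abundant members, Rpl5 (26.7% of exon bases, mean 626 CPM) and Rpl31 (25.3%, mean 298 CPM). Moreover, multimapping reads did not enter the counts, and at least 50% of the 50-base words of the transcript also occur in another gene for 42 of 86 members (median 49.3%). Such a gene can be one that overlaps the member, so overlap and shared words are not separate measures, and not every shared word makes a read multimap. A member's level is therefore that of the countable part of its transcript. Rps27 is an extreme case, with 98.7% of its words shared.

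Differences between groups were tested in 1 edgeR quasi-likelihood fit over all 12 libraries and 16426 genes, and a member was called at a Benjamini-Hochberg adjusted p under 0.05 over all of these genes. Of the 86 members, 83 passed the filter on low counts. Rpl10l, a testis paralog, had 0 counts in all libraries, and Rpl3l, a muscle paralog, and Rpl39l, a germ cell paralog, were too low to test. Across the 4 groups 67 of 83 members were called, against 74.8% of all tested genes. Changes were small: 57 members stayed under 1.5-fold in all 6 comparisons, and 7 reached 2-fold in at least 1 comparison (Rps27l, Rps27, Rps27rt, Rpl22l1, Rps10, Rps2 and Rps19bp1). In no comparison did 15 members pass the test, Rpl11, Rpl22, Rpl38, Rpl39 and Rplp0 among them.

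In effector libraries more members were called lower than higher against naive libraries. In this comparison, which asks what antigen and culture changed in resting cells, 3 members were called higher and 31 lower, against 14.6% and 10.4% of all tested genes (24.9% in either direction). The median log2 fold change was -0.24 over the members and 0.01 over all tested genes. Among abundant genes (mean log2 CPM of at least 7), 39.4% of 71 members and 11.4% of 1660 other genes were called lower. Of the 31 core small subunit genes 15 were lower, and of the core large subunit genes 2 of 43 were higher and 14 lower. The 3 P stalk genes, which recruit translation factors to the ribosome, gave 1 lower call, Rplp1. Of the lower calls, 23 held in all 12 fits that leave out a library, and of the higher ones, that of Rpl29, which was the 1 higher call without naive replicate 1 or effector replicate 3.

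Rps29, a small subunit protein, stood at 273, 285 and 279 CPM in effector libraries and 387, 463 and 510.1 CPM in naive libraries (log2 fold change -0.70 with an SE of 0.10, edgeR adjusted p = 9.33e-05). The effector values were tightly grouped and well apart from the naive ones. Rpl12, part of the base of the P stalk, averaged 622 ± 48.2 CPM in effector libraries and 914 ± 57.9 CPM in naive libraries (SD, n = 3 each), a log2 fold change of -0.55 (SE 0.10). Rpl5, which with Rpl11 and 5S RNA binds Mdm2 when ribosome assembly fails, averaged 548 ± 72.6 CPM in effector libraries and 809.7 ± 27.9 CPM in naive libraries (SD, n = 3 each). Rpl11 itself was not called (log2 fold change -0.21 with an SE of 0.08, edgeR adjusted p = 0.0683).

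The members called higher in effector libraries were Rpl29, Rps27l and Rpl18. Rpl29, a large subunit protein also described as a heparin-binding protein at the cell surface, stood at 351, 415 and 382 CPM in effector libraries, against 245, 269 and 285 CPM in naive libraries, without overlap (log2 fold change 0.52 with an SE of 0.10, edgeR adjusted p = 0.000921). The call of Rpl18 (log2 fold change 0.36 with an SE of 0.10, edgeR adjusted p = 0.0148) was lost without naive replicate 1 (adjusted p = 0.0902), without effector replicate 3 (adjusted p = 0.0701) and with library totals as the scaling (adjusted p = 0.0979). That of Rps27l (log2 fold change 0.44 with an SE of 0.15, edgeR adjusted p = 0.0408) was kept only in the fits without naive replicate 3, day 4 replicate 1 or day 4 replicate 3, with adjusted p up to 0.143 in the other 9 that leave out a library. It was also lost with total gene counts as the scaling, with no filter on low counts and with the 2 groups alone.

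These counts depend on the scaling. With total gene counts as library size, 1 member was called higher and 55 lower in effector libraries, and the median of all tested genes shifted by -0.12. With the summed member counts as library size, which asks how each member changed relative to the others, 8 were higher and 10 lower. Among the 10 that were lower on that scale too were Rps10, Rpl22l1, Rps29, Rpl31, Rpl5, Rpl12, Rpl14, Rplp1 and Rps2, each of them lower relative to the sum of the members.

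**Figure D2:**
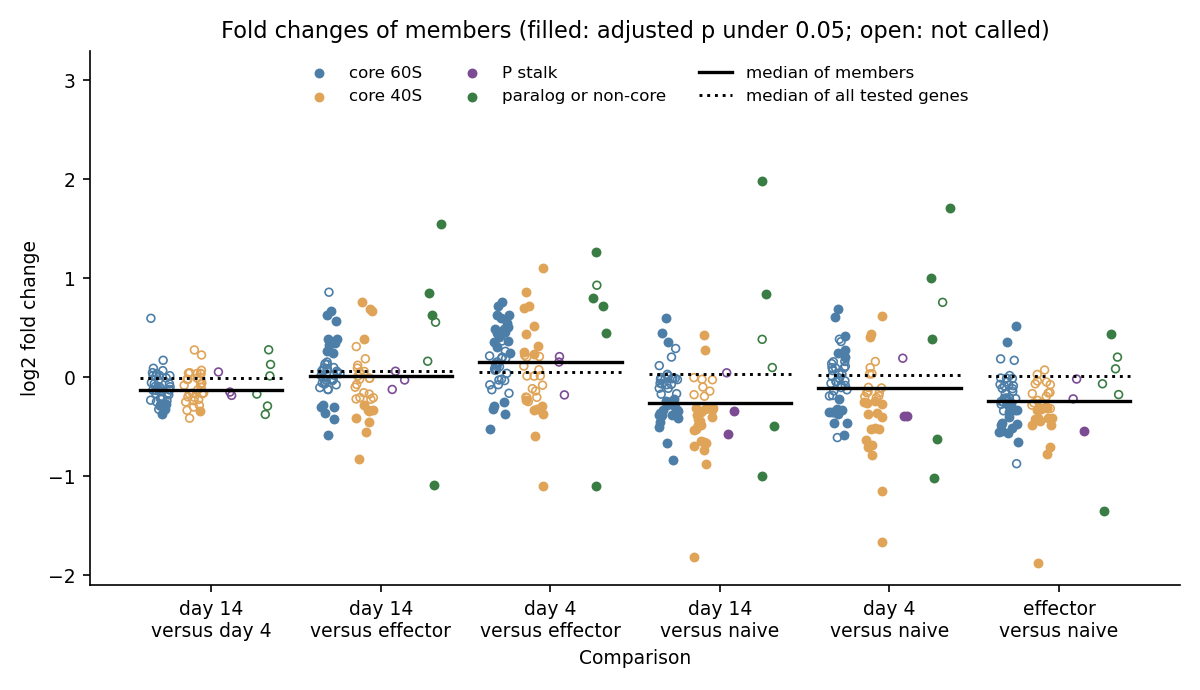
Log2 fold change (y axis) of each tested member in 6 comparisons (x axis), coloured by role, with filled points called at an adjusted p under 0.05 and open points not called. Solid lines are the median of the members and dotted lines the median of all tested genes. For day 14 versus naive the members' median is -0.26, while Rps27l stands at 1.99 and Rps10 at -1.82.

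In day 14 tumour libraries most of the tested members were lower than in naive libraries. Of the members 7 were called higher and 45 lower, against 33.6% and 28.5% of all tested genes (62.1% in either direction), with a median log2 fold change of -0.26 (all tested genes 0.04). Among abundant genes, 57.7% of 71 members and 35.9% of 1660 others were called lower, and 7.04% and 40.8% higher. Of the small subunit genes 22 of 31 were lower (median -0.35) and 2 higher, and of the large subunit genes 19 of 43 were lower (median -0.11) and 3 higher. Without day 14 replicate 1, the library with the highest melanoma marker sum, 32 members were lower and 9 higher, and the median was -0.17. With the summed member counts as the scaling, 18 members were higher and 16 lower. Effector and day 14 libraries were both set against the same naive libraries here.

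Rpl12 stood at 434, 544 and 562 CPM in day 14 libraries, against 862, 904 and 976 CPM in naive libraries, the largest decrease among large subunit genes (log2 fold change -0.83 with an SE of 0.10, edgeR adjusted p = 3e-06). The highest day 14 library lay far under the lowest naive one. Rps29 was also low in both tumour groups, at 291 ± 21.3 CPM in day 14 libraries, 282 ± 24.2 CPM in day 4 libraries and 453 ± 61.9 CPM in naive libraries (SD, n = 3 each). Rps6, the substrate of S6 kinase and a common readout of mTORC1, averaged 561 ± 64.3 CPM in day 14 libraries and 759 ± 41.6 CPM in naive libraries (SD, n = 3 each), a log2 fold change of -0.44 (SE 0.09 and edgeR adjusted p = 0.000505). Its call was absent with the summed member counts as the scaling (log2 fold change -0.21, adjusted p = 0.0535). Rps19, the protein most often mutated in Diamond-Blackfan anaemia, was lower than in naive libraries in all 3 other groups, with log2 fold changes of -0.42 in day 14, -0.40 in day 4 and -0.41 in effector libraries.

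In day 4 libraries both directions were represented. Against naive libraries, 12 members were called higher and 30 lower at day 4 (all tested genes 33.4% and 28.8%, or 62.2% in either direction), with a median of -0.11. Among abundant genes, 38.0% of 71 members and 40% of 1660 others were called lower, so the lower calls were near that share. Higher calls were 12.7% and 38.0%. Of the small subunit genes 16 of 31 were lower and 3 higher, and of the large subunit genes 10 of 43 were lower and 6 higher. Without naive replicate 1, 6 members were called higher at day 4. Rps24, a small subunit protein named after its values were seen, averaged 827 ± 46.6 CPM in day 4 libraries, against 1343 ± 70.3 CPM in naive libraries (SD, n = 3 each).

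Summed levels of the subunits are given as a description, with no test. The sum of the 31 core small subunit genes divided by the sum of the 43 core large subunit genes was 0.837, 0.865 and 0.865 in day 14 libraries, 0.851, 0.839 and 0.857 in day 4 libraries, 0.915, 0.881 and 0.902 in effector libraries, and 0.944, 0.925 and 0.957 in naive libraries. The tumour libraries lay lowest, all naive libraries lay highest, and effector libraries fell between them without overlap. The highest value of the 6 tumour libraries was under the lowest of the 6 others. These ratios are those of the countable parts of the transcripts, and the scaling of the libraries does not enter them.

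**Figure D3:**
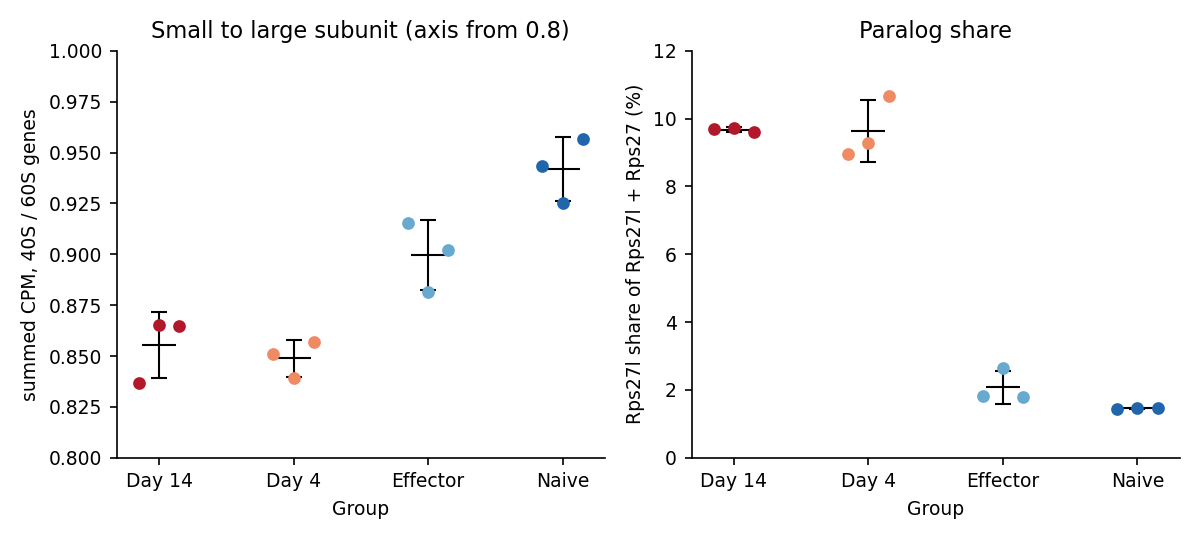
Left, summed CPM of core 40S genes divided by that of core 60S genes in each library (axis from 0.8 to 1). Right, Rps27l as percent of Rps27l plus Rps27 CPM. Points are libraries, and bars are the mean and SD of 3 libraries. The ratio on the left is 0.837 to 0.865 in the tumour groups and 0.925 to 0.957 in naive libraries, and the share on the right is 8.95% to 10.7% in the tumour groups and 1.45% to 1.46% in naive libraries.

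Set against effector libraries, tumour libraries held a mixture of higher and lower members. In day 14 libraries 17 members were higher and 15 lower (all tested genes 32.6% and 28.4%, or 61.0% in either direction), with a median of 0.02. Without effector replicate 3 the lower ones were 8, and without day 14 replicate 1 the median was 0.15. In day 4 libraries 29 members were higher and 13 lower (all tested genes 32.7% and 29.2%, or 61.9% in either direction), with a median of 0.16, and the lower ones were 6 without effector replicate 3, 8 without effector replicate 1 and 7 without day 4 replicate 2, and 23 with the summed member counts as the scaling. Both comparisons share the effector libraries. Of the large subunit genes 16 of 43 were higher at day 4 than in effector cells and 5 lower.

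A group of 6 of the 83 tested members was called higher in both tumour groups than in effector and in naive libraries, against 22.7% of all tested genes: Rpl41, Rpl7a, Rps2, Rps26, Rps27l and Rps19bp1. These and the following groups were put together after their values were seen. Of the 6, Rpl41, Rpl7a and Rps27l kept all 4 calls in every fit that leaves out a library. Rps2, a small subunit protein near the messenger RNA entry channel, stood at 747, 980.0 and 919 CPM in day 14 libraries, 1110.0, 1016 and 1226 CPM in day 4 libraries, 514, 489.7 and 554 CPM in effector libraries, and 671, 719.9 and 787 CPM in naive libraries. Day 4 libraries were highest and effector libraries lowest, and the log2 fold change of day 4 versus effector was 1.11 (SE 0.10 and edgeR adjusted p = 1.37e-07). At day 14 replicate 1 overlapped the naive ones, and the call against naive (log2 fold change 0.28, edgeR adjusted p = 0.0265) was lost without day 14 replicate 2 (adjusted p = 0.143), day 14 replicate 3 (adjusted p = 0.0755), naive replicate 1 (adjusted p = 0.111) or naive replicate 2 (adjusted p = 0.0665), and with total gene counts as the scaling (adjusted p = 0.0778). Rpl41, a very short basic peptide that bridges both subunits, averaged 1018 ± 111 CPM in day 14 libraries, 1087 ± 95.6 CPM in day 4 libraries, 640.2 ± 20.9 CPM in effector libraries and 672 ± 79.4 CPM in naive libraries (SD, n = 3 each). All 6 tumour libraries were above all 6 others, with log2 fold changes of 0.60 (SE 0.10) at day 14 and 0.69 (SE 0.10) at day 4 against naive. Rps26, which sits at the messenger RNA exit channel and whose promoter is printed above, averaged 454 ± 60.1 CPM in day 14 libraries, 457 ± 40.5 CPM in day 4 libraries, 281 ± 55.2 CPM in effector libraries and 336 ± 50.9 CPM in naive libraries (SD, n = 3 each). Its call against naive was lost without naive replicate 1, with an adjusted p of 0.0807 at day 14 and 0.0692 at day 4, and at day 14 also without day 14 replicate 2 (adjusted p = 0.065) or replicate 3 (adjusted p = 0.0583).

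A group of 10 was called lower at day 14 and at day 4 than in effector and in naive libraries, against 17.8% of all tested genes, and among them were Rpl17, Rpl19, Rpl37a, Rps14, Rps16, Rps24, Rps27 and Rps27rt. Of the 10, 4 kept all 4 calls in every fit that leaves out a library, Rpl19, Rps27 and Rps27rt among them. Rpl19, a large subunit protein named after its values were seen, stood at 258, 287 and 305 CPM in day 14 libraries, 298, 257 and 289.7 CPM in day 4 libraries, 346, 362 and 383 CPM in effector libraries, and 323, 379 and 375 CPM in naive libraries. The tumour libraries lay under all others, with a log2 fold change of -0.36 (SE 0.09 and edgeR adjusted p = 0.00296) for day 14 versus effector and -0.34 (SE 0.09) for day 14 versus naive. Called lower than in naive libraries in all 3 other groups were 13 members, against 4.21% of all tested genes: Rps7, Rps10, Rps16, Rps19, Rps24, Rps29, Rpl5, Rpl12, Rpl22l1, Rpl23, Rpl30, Rpl35a and Rplp1, of which 7 kept all 3 calls in every such fit. Lower in effector libraries than in all 3 other groups were 9 members, against 4.41% of all tested genes, and among them were Rpl3, Rpl10, Rpl14, Rpl15, Rpl22l1, Rpl31, Rps2 and Rps25. Of the 9, 7 kept all 3 calls in every such fit, and Rpl14 and Rpl15 did not.

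**Figure D4:**
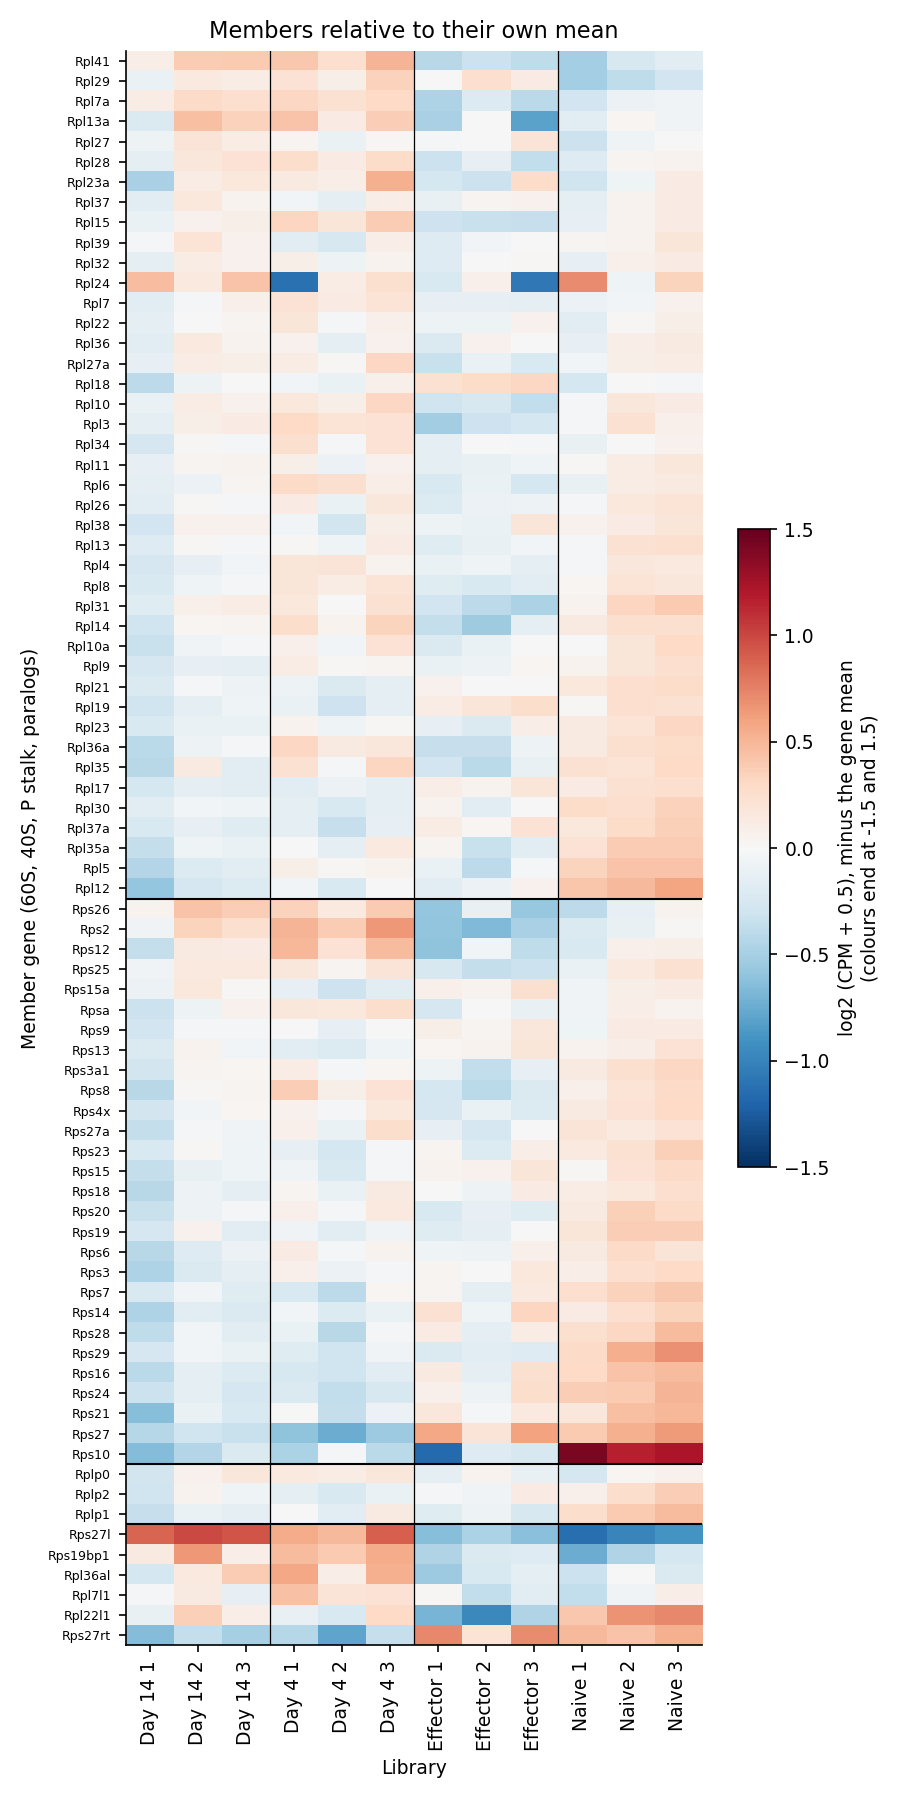
Most of the tested members (rows, grouped as 60S, 40S, P stalk and paralog or non-core genes) in each library (columns), as log2 (CPM + 0.5) minus the gene's mean, with red above and blue below the mean and colours ending at -1.5 and 1.5. Rps27l is red in tumour libraries and blue elsewhere, Rps27 and Rps27rt show the reverse, and Rps10 is red in naive libraries alone.

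The paralogs and their core partners are described next. Rps27l (ENSMUSG00000036781.13, chr9:66946086-66949516 in GRCm38, plus strand) encodes a small subunit protein that differs from Rps27 at a few residues and is known as a target of p53. It stood at 38.5, 42.1 and 40.4 CPM in day 14 libraries, 31.0, 29.4 and 39.4 CPM in day 4 libraries, 13.2, 14.9 and 13.4 CPM in effector libraries, and 9.24, 10.3 and 11.0 CPM in naive libraries. All tumour libraries were above all others. The log2 fold change was 1.99 (SE 0.15 and edgeR adjusted p = 9.35e-09) for day 14 versus naive, 1.71 (SE 0.15) for day 4 versus naive and 1.54 (SE 0.15) for day 14 versus effector. Day 14 and day 4 did not pass the test against each other (0.28, SE 0.14, edgeR adjusted p = 0.235).

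Rps27 (ENSMUSG00000090733.6, chr3:90212522-90213651, minus strand) moved the other way. It stood at 358, 391 and 381 CPM in day 14 libraries, 315, 287 and 330.1 CPM in day 4 libraries, 718, 550.2 and 732 CPM in effector libraries, and 628, 692 and 744 CPM in naive libraries. The 6 tumour libraries were all under the 6 others. Against naive libraries the log2 fold change was -0.87 (SE 0.11 and edgeR adjusted p = 2.37e-06) at day 14 and -1.15 (SE 0.11 and edgeR adjusted p = 1.01e-07) at day 4, and effector and naive libraries did not pass the test (-0.05, SE 0.10). Of the CPM of both genes, Rps27l made up 9.71%, 9.72% and 9.60% in day 14 libraries, 8.95%, 9.27% and 10.7% in day 4 libraries, 1.81%, 2.63% and 1.80% in effector libraries, and 1.45%, 1.46% and 1.46% in naive libraries. The shares of tumour libraries lay far from the rest, and those of the naive libraries were nearly the same in all 3. Because 98.7% of the words of Rps27 and 22.4% of those of Rps27l occur in other genes, the share is that of countable reads. Library scaling does not enter it. In the promoters printed above, the run of 9 pyrimidines spans the annotated start in Rps27 and ends before it in Rps27l.

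Rps27rt, an intronless retrogene copy of Rps27 on chromosome 9, followed Rps27. It averaged 14.5 ± 1.53 CPM in day 14 libraries, 14.3 ± 2.37 CPM in day 4 libraries, 30.7 ± 5.88 CPM in effector libraries and 28.9 ± 1.07 CPM in naive libraries (SD, n = 3 each). The log2 fold change was -1.01 (SE 0.17) for day 4 versus naive and -1.09 (SE 0.17) for day 14 versus effector. As 91.1% of its words occur in another gene, reads of the retrogene and of its parent may be exchanged, and its counts are uncertain.

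Rpl22l1 and Rpl22 made up the other contrasting pair. Rpl22 binds RNA and is needed for early development of alpha beta T cells, and Rpl22l1 is its closest relative. Rpl22l1 (ENSMUSG00000039221.10, chr3:28805436-28807424, plus strand) stood at 12.6, 17.6 and 14.6 CPM in day 14 libraries, 12.5, 11.5 and 16.9 CPM in day 4 libraries, 8.20, 6.71 and 9.82 CPM in effector libraries, and 18.3, 22.1 and 22.8 CPM in naive libraries. Effector libraries were lowest and naive ones highest, with no overlap of either with any other group. The log2 fold change was -1.35 (SE 0.21 and edgeR adjusted p = 0.000166) for effector versus naive and 0.86 (SE 0.20 and edgeR adjusted p = 0.00175) for day 14 versus effector. The smaller difference of day 14 from naive (log2 fold change -0.49, edgeR adjusted p = 0.0396) was lost when day 4 replicate 1, day 14 replicate 1, day 14 replicate 3, naive replicate 2 or naive replicate 3 was left out, with adjusted p up to 0.158, with no filter on low counts (adjusted p = 0.0612) and with the stranded columns summed (adjusted p = 0.161). That of day 4 from naive (log2 fold change -0.62, edgeR adjusted p = 0.012) was lost without naive replicate 3, day 4 replicate 1 or day 4 replicate 2, with adjusted p up to 0.0748, and with the stranded columns summed (adjusted p = 0.0933). Rpl22 averaged 308 ± 21.4 CPM in day 14 libraries, 334 ± 24.7 CPM in day 4 libraries, 309.8 ± 18.3 CPM in effector libraries and 312 ± 28.0 CPM in naive libraries (SD, n = 3 each), and no comparison passed the test for it. In other genes occur 65.6% of the words of Rpl22l1 and 5.2% of those of Rpl22, so the levels of Rpl22l1 are those of countable reads.

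**Figure D5:**
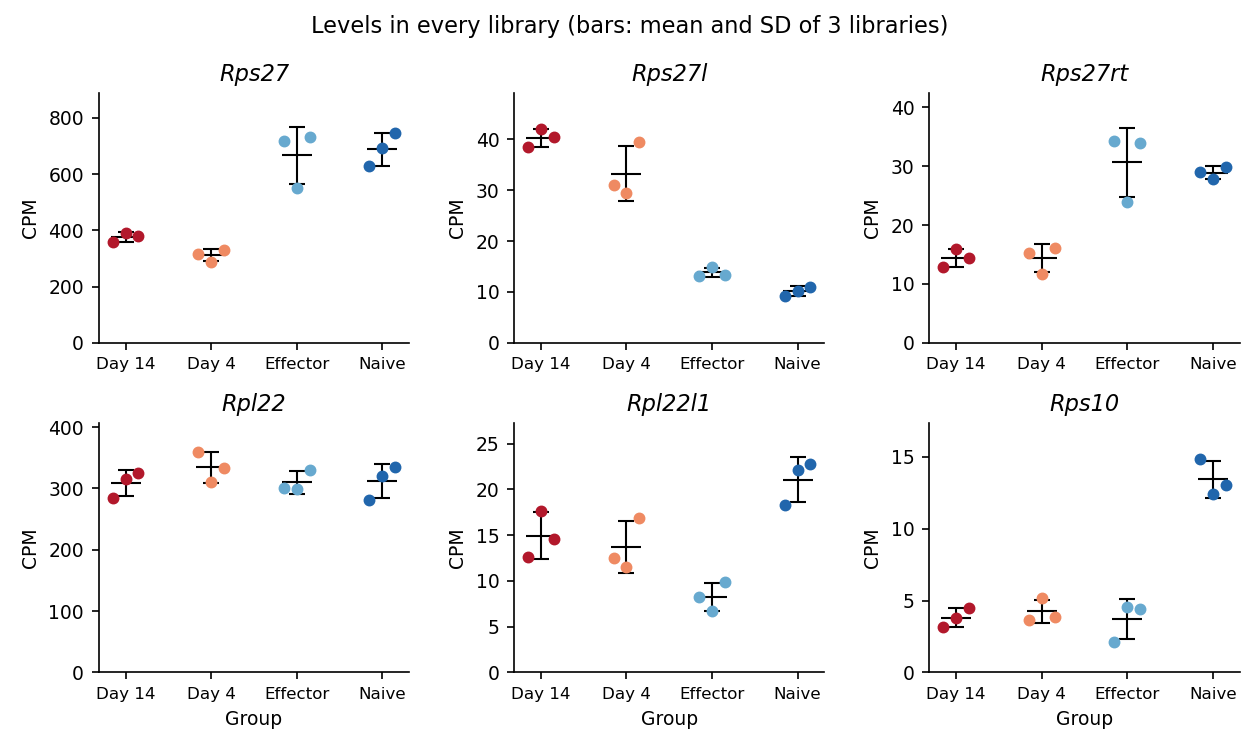
CPM (y axes from 0) of Rps27, Rps27l, Rps27rt, Rpl22, Rpl22l1 and Rps10 in each library by group, with bars for the mean and SD of 3 libraries. Rps27l averages 40.3 CPM at day 14 and 10.2 CPM in naive libraries while Rps27 averages 377 and 688 CPM, and Rpl22 stays between 308 and 334 CPM.

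Among the remaining relatives, Rps19bp1, a nucleolar protein that binds Rps19 and Sirt1 and is no ribosome component, averaged 10.5 ± 2.49 CPM in day 14 libraries, 11.8 ± 0.694 CPM in day 4 libraries, 6.79 ± 0.718 CPM in effector libraries and 5.89 ± 1.05 CPM in naive libraries (SD, n = 3 each). The log2 fold change was 1.01 (SE 0.23 and edgeR adjusted p = 0.00099) at day 4 and 0.84 (SE 0.23 and edgeR adjusted p = 0.00391) at day 14 against naive. Its call for day 14 versus effector was lost without effector replicate 1 (adjusted p = 0.063) or day 14 replicate 2 (adjusted p = 0.114). Rpl7l1, which takes part in large subunit assembly, was called higher at day 4 than in naive libraries (log2 fold change 0.39 with an SE of 0.15, edgeR adjusted p = 0.0325), and this was lost without naive replicate 1 (adjusted p = 0.145), naive replicate 2 (adjusted p = 0.0511) or day 4 replicate 1 (adjusted p = 0.109), and with total gene counts as the scaling (adjusted p = 0.0632). Rpl36al averaged 1.77 ± 0.495 CPM in day 14 libraries, 2.31 ± 0.492 CPM in day 4 libraries, 1.21 ± 0.24 CPM in effector libraries and 1.36 ± 0.211 CPM in naive libraries (SD, n = 3 each), and was not called in any comparison.

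Rps10 (ENSMUSG00000052146.16, chr17:27630418-27636669, minus strand) had the largest decrease of any core gene, and was named after its values were seen because its level lies under the limit set for named genes. The protein lies in the small subunit head and is ubiquitinated when ribosomes collide. It had 48, 64 and 74 counts in day 14 libraries, 50, 86 and 58 counts in day 4 libraries, 29, 53 and 57 counts in effector libraries, and 201, 156 and 170 counts in naive libraries. Naive libraries alone were high, and the other 9 overlapped each other. The log2 fold change against naive was -1.82 (SE 0.29 and edgeR adjusted p = 4.84e-05) at day 14, -1.66 (SE 0.29 and edgeR adjusted p = 0.000111) at day 4 and -1.87 (SE 0.30 and edgeR adjusted p = 0.00023) in effector libraries. Other annotated genes, among them the readthrough gene RPS10-NUDT3, overlap 28.7% of its exon bases. Of the words of its transcript, 56.8% occur in transcripts of other genes, and the overlapping genes can be among these. Where in the gene these few counts lie was not tested.

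The P stalk genes did not move together. Rplp0, the scaffold of the stalk and a common reference gene for PCR, averaged 1012 ± 157 CPM in day 14 libraries, 1121 ± 19.3 CPM in day 4 libraries, 969 ± 70.3 CPM in effector libraries and 979.9 ± 117 CPM in naive libraries (SD, n = 3 each), and passed the test in no comparison. Rplp1 averaged 477 ± 43.5 CPM in day 14 libraries, 541 ± 57.2 CPM in day 4 libraries, 486 ± 27.8 CPM in effector libraries and 708 ± 52.6 CPM in naive libraries (SD, n = 3 each). It was lower than naive in all 3 groups, with log2 fold changes of -0.57, -0.39 and -0.54 (SE 0.10 each) for day 14, day 4 and effector. Rplp2 was called lower than naive at day 14 (log2 fold change -0.34, edgeR adjusted p = 0.00691) and day 4 (log2 fold change -0.39, edgeR adjusted p = 0.0024). The day 14 call of Rplp2 was lost without naive replicate 3 (adjusted p = 0.058) or day 14 replicate 1 (adjusted p = 0.0528).

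Between the tumour time points edgeR called 0 members higher and 6 lower at day 14 than at day 4 (all tested genes 7.17% and 4.91%, or 12.1% in either direction), with a median of -0.12. Among abundant genes, 8.45% of 71 members and 8.73% of 1660 others were called lower, so the lower calls were near that share. Higher calls were 0% and 20.2%. At an unadjusted p under 0.05, 2 were higher and 21 lower, and DESeq2 called 0 higher and 12 lower. With total gene counts as the scaling 12 were lower, with no filter on low counts 13, with the compared groups alone 2, and with the summed member counts 3 were higher and 0 lower. The 6 were Rpl36a, Rps2, Rpl5, Rpl4, Rpl15 and Rpl8, the last named after its values were seen. Rpl36a stood at 187, 233 and 241 CPM in day 14 libraries, against 307, 270.0 and 277 CPM in day 4 libraries, a log2 fold change of -0.37 (SE 0.10 and edgeR adjusted p = 0.0294). Rpl4, whose extension lines the exit tunnel, averaged 1417 ± 105 CPM in day 14 libraries and 1722 ± 89.7 CPM in day 4 libraries (SD, n = 3 each). Every day 14 library lay under every day 4 library for all of the 6 and for 18 of the 83 tested members, against 14.1% of all tested genes and 98.8% of the 806 genes called lower. The number of members called lower was 0 without day 14 replicate 1, 0 without day 4 replicate 1, and 3 without naive replicate 2, day 4 replicate 3 or day 14 replicate 2. Without effector replicate 2, 1 member was called higher. Without day 14 replicate 1 the median of the members was -0.04.

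Other genes of the same machinery were described by lists. For these, the shares of all tested genes called higher and lower were 33.6% and 28.5% for day 14 versus naive, 33.4% and 28.8% for day 4 versus naive, 14.6% and 10.4% for effector versus naive, and 32.6% and 28.4% for day 14 versus effector. Fau encodes a fusion of a small subunit protein and Rack1 a protein bound to the small subunit, and both lie outside the name rule. Fau averaged 347 ± 39.1 CPM in day 14 libraries, 331 ± 30.2 CPM in day 4 libraries, 489 ± 35.6 CPM in effector libraries and 387 ± 25.7 CPM in naive libraries (SD, n = 3 each). Rack1 was lower in day 14 than in naive libraries (log2 fold change -0.29 with an SE of 0.09, edgeR adjusted p = 0.00843). Genes of the mitochondrial ribosome were counted in the same way: for day 14 versus naive 40 of 77 tested were higher (51.9%) and 11 lower (14.3%), with a median of 0.52, and for effector versus naive 9 were higher (11.7%) and 6 lower (7.79%), with a median of 0.07. Other genes with TOP messenger RNAs, mostly translation factors, gave 12 of 18 higher and 3 lower for day 14 versus naive (median 0.32), 14 higher and 1 lower for day 4 versus naive (median 0.44), and 2 higher and 5 lower for effector versus naive. Among them Npm1, a nucleolar chaperone of ribosome assembly, averaged 2324 ± 182 CPM in day 14 libraries, 3579.6 ± 434 CPM in day 4 libraries, 1304 ± 145 CPM in effector libraries and 1629 ± 130.2 CPM in naive libraries (SD, n = 3 each). Tpt1 fell instead, with a log2 fold change of -0.82 (SE 0.09 and edgeR adjusted p = 1.41e-06) for day 14 versus naive.

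Of 14 genes of the axis from mTORC1 to S6 kinase and its TOP regulators, 5 were higher and 4 lower for day 14 versus naive (35.7% and 28.6%, close to the shares of all tested genes) and 2 were higher and 2 lower for effector versus naive. Larp1, which binds the TOP motif, averaged 306 ± 11.6 CPM in day 14 libraries, 292 ± 2.46 CPM in day 4 libraries, 232 ± 8.56 CPM in effector libraries and 241 ± 18.3 CPM in naive libraries (SD, n = 3 each). Eif4ebp1, an inhibitor of cap-dependent initiation, was higher than naive in effector libraries (log2 fold change 1.72 with an SE of 0.26, edgeR adjusted p = 0.000128). Of 7 tested chaperones of single ribosomal proteins, 3 were lower for effector versus naive and 3 higher for day 14 versus effector, with no call in the other direction. Heatr3, which carries Rpl5 into the nucleus, was among both, at 73.2 ± 10.1 CPM in day 14 libraries, 43.6 ± 4.55 CPM in effector libraries and 64.4 ± 0.979 CPM in naive libraries (SD, n = 3 each). Of 9 tested genes of ribosome rescue and recycling, 3 were higher and 3 lower for day 14 versus naive (33.3% each, near the shares of all tested genes). Of 300 symbols with "-ps", 85 had enough counts to test, and for day 14 versus naive 3 were higher and 16 lower (median -0.21), and 11 were lower for effector versus naive (median -0.27). Such copies can share reads with the members.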

How the data were processed

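Per the labels' protocols, cells were sorted into lysis buffer, RNA was taken with Dynabeads, amplified cDNA was tagmented, and sequencing was single-end. The deposited values are raw counts per gene, made by the authors with fastp 0.19.6 and STAR 2.6.1b on GRCm38, per the submitters' processing notes. They have the layout of the per-gene counts that STAR writes, and the annotation release is not given in the sources used here. The unstranded column was used, since 49.8% to 49.9% of stranded gene counts lay on the sense column, so sense and antisense transcripts are not separated. Library sizes exclude the rows that name no gene: of each table's reads, those outside genes were 20.7% to 30.2%, unmapped 4.9% to 5.52%, mapped to several places 5.9% to 7.29% and ambiguous 3.22% to 3.81%. Identifiers were matched to GENCODE M21 (55141 of 55401). Amplified reads without molecular identifiers are not independent molecules, and the effect of this on the tests was not examined.

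Counts were filtered with filterByExpr (16426 genes, 83 members), scaled with TMM factors and fitted in edgeR 4.0.16 (R 4.3.3) with a robust quasi-likelihood fit of the 4 groups (8 residual degrees of freedom). In data simulated for effector versus naive, it recovered 39% of 100 genes changed 1.5-fold and 93% of 100 genes changed 3-fold. The changed genes were drawn at random from all genes above a low level in naive libraries. They were not matched to the members, of which 72 of 77 core and P stalk genes averaged at least 100 CPM. The rates are therefore not those of the members. A member that was not called may still have changed by a small fold. DESeq2 1.42.0 and the other alternatives listed below were run beside this edgeR fit. CPM are mean ± SD over 3 libraries with TMM factors. Overlap of exons and shared 50-base words were computed from the annotation and its transcripts, and promoters come from RefSeq.

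Members and lists were chosen with earlier results of these data known. Named by rule were the paralogs with their core genes, the P stalk genes, the 3 most abundant members of each subunit, a panel of 9 genes, and the called members with the 5 (main comparisons) or 3 (others) highest and lowest folds and a mean log2 CPM of at least 4. Some members that this rule names are not reported here.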

Additional observations from a re-analysis of the deposited data

How the results depend on the processing

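The counts of called members changed most with the scaling. With total gene counts as library size they were 1 higher and 55 lower for effector versus naive and 12 lower for day 14 versus day 4. With the summed member counts as library size they were 8 higher and 10 lower for effector versus naive, 3 higher and 0 lower for day 14 versus day 4, 18 higher and 16 lower for day 14 versus naive, and 23 lower for day 4 versus effector. That scaling moved the median of all tested genes by 0.22 for effector versus naive and 0.23 for day 14 versus naive. TMM factors computed without the members and the sum of the stranded columns left every count within 1.5 times. DESeq2 gave 12 lower for day 14 versus day 4, no filter on low counts gave 1 higher and 13 lower, and the compared groups alone gave 2 lower. When each library was left out in turn, the counts of higher and lower members ranged from 1 to 3 and 23 to 45 for effector versus naive, 14 to 22 and 8 to 17 for day 14 versus effector, 0 to 1 and 0 to 9 for day 14 versus day 4, 6 to 13 and 21 to 31 for day 4 versus naive, 5 to 9 and 32 to 45 for day 14 versus naive, and 27 to 38 and 6 to 14 for day 4 versus effector, and 58 to 70 members were called across the 4 groups. The cause of these changes was not tested. Same-numbered libraries showed little correlation, which with 3 libraries per group cannot exclude that they were prepared together. Of 18 same-numbered pairs, 1 had a correlation of deviations over 0.1 (range -0.09 to 0.10), and in 6 the own number was highest. With a replicate block, 3 members were higher and 33 lower for effector versus naive, 7 and 46 for day 14 versus naive, and 0 and 8 for day 14 versus day 4. No called member named here changed sign in any of these fits. The 3 libraries per group and the small folds limit what could be called, and near-identical gene copies limit the reads.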
